A study of Caenorhabditis elegans with 2 samples.

Results

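The genes described here are 8 Caenorhabditis elegans regulators of stress responses and lifespan: skn-1, hsf-1, hif-1, xbp-1, atfs-1, atf-4, pqm-1 and smk-1. They were taken by symbol from the 19973 protein-coding genes annotated by Ensembl on WBcel235, and the question was where the FoxA factor PHA-4 sat around them. The data are ChIP-seq peak lists from whole L3 larvae of mixed sex of strain OP37, whose genotype is unc-119(ed3) III with the insertion wgIs37, which targets pha-4. Its protein carries an eGFP tag per the labels, although their antibody entry names pha-4 alone. All larvae belong to 1 group, measured in 2 biological replicates and compared with no other condition; read depth was not given. A transgenic line, a tagged protein and a mixture of all tissues of the larva therefore underlie every value, and how far the inserted DNA extends around pha-4 was not given.

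PHA-4 is the forkhead factor that specifies the pharynx, and it also acts in the intestine and in the lifespan response to dietary restriction. Each regulator senses or relays a different stress. SKN-1 (an Nrf-like factor) answers oxidants, HSF-1 heat, HIF-1 low oxygen, XBP-1 unfolded protein in the endoplasmic reticulum and ATFS-1 failing mitochondrial import. ATF-4 is the effector of the integrated stress response, PQM-1 is a zinc finger factor of the insulin pathway that alternates with DAF-16 in the nucleus, and SMK-1 is a regulatory subunit of protein phosphatase PP4 needed for lifespan extension through DAF-16 and PHA-4.

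PHA-4 peaks lay in the promoters of 4 of the 8 genes, skn-1, xbp-1, atfs-1 and atf-4. Promoter here means from 1000 bp upstream to 200 bp downstream of any annotated 5' end, and a gene was called bound when the summit of a peak of the authors' optimal list, which holds 7847 peaks, fell there. Of all protein-coding genes, 24.0% were bound by the same rule (4796 of 19973). Around the genes the picture was wider, since 7 of the 8 had at least 1 optimal summit within the gene or 5 kb of a 5' end, beside 49.1% of all genes. The exception was hif-1. With windows from 2000 bp upstream, hsf-1, pqm-1 and smk-1 were bound as well, which made 7 of 8, beside 29.4% of all genes. A count of 4 or 7 among 8 chosen genes is a description, and no test was made of it.

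The promoter summits differed in the letters beneath them, so the 101 bases centred on each are shown for 4 of the 5 promoter summits. They are given 5' to 3' on the strand of the gene, from the RefSeq genome of WBcel235, the assembly also called ce11. Capitals mark matches to the FoxA consensus, a heptamer of T, then A or G, then TT, then G or T, then A or G, then C or T, on either strand, or to GAGAGA on either strand. The xbp-1 summit (chromosome III, 4193704 to 4193804, plus strand) held 2 FoxA matches and a run of TCTCTC, while that of atfs-1 (chromosome V, 14193549 to 14193649, plus strand) held GAGAGA matches alone. The intronic skn-1 summit (chromosome IV, 5656047 to 5656147, minus strand) held 12 overlapping GAGAGA matches, and that of atf-4 (chromosome X, 14810859 to 14810959, minus strand) held neither. The promoter summit not shown, 499 bp upstream of the first 5' end of skn-1, held neither as well.
xbp-1 promoter: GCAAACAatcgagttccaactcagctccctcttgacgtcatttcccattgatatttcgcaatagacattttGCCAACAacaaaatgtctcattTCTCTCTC
atfs-1 promoter: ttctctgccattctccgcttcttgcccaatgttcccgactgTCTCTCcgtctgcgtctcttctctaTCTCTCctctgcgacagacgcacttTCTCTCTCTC
skn-1 promoter within the gene: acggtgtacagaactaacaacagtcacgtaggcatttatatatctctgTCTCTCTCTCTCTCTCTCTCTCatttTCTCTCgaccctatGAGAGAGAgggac
atf-4 promoter: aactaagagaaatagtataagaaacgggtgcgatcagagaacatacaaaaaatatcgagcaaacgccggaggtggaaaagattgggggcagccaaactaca

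High summits outside the promoters are shown for comparison, since at skn-1, atfs-1 and atf-4 the highest one stood above the promoter summit. For smk-1 the second highest is shown, because the highest lies in a coding exon of another gene and its bases are not printed. The downstream atfs-1 summit (chromosome V, 14200149 to 14200249, plus strand) and the upstream atf-4 summit (chromosome X, 14813509 to 14813609, minus strand) each held 1 FoxA match. So did the highest skn-1 summit, in an intron (chromosome IV, 5657152 to 5657252, minus strand). The upstream smk-1 summit (chromosome V, 8606437 to 8606537, plus strand) held none.
atfs-1 downstream: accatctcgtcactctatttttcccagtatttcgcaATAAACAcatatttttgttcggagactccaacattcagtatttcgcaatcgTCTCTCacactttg
atf-4 upstream: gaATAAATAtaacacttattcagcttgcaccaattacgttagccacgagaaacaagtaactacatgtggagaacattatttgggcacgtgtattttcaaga
skn-1 intron: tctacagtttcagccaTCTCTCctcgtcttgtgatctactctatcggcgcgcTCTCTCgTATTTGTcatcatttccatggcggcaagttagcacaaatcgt
smk-1 upstream: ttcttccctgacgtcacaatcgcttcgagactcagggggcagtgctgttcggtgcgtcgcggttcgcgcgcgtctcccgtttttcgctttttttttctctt

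Together the 8 loci held 24 optimal summits. The authors' signal, a peak height whose scale is not stated, ran from 48.2 to 380 over them with a median of 99.97, and over all optimal peaks from 41.4 to 862 with a median of 84.7. Thus 15 of the 24 summits stood above the median of the list. To set the replicates side by side, the height of each replicate's own region nearest to the summit, within 200 bp, was divided by that replicate's median over the optimal peaks, 28.4 in replicate 1 and 57.6 in replicate 2. This ratio is called relative signal below, and 1 is the height of a typical optimal peak. All 24 summits had a region in both replicates, as did 98.1% of the optimal list.

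**Figure D1:**
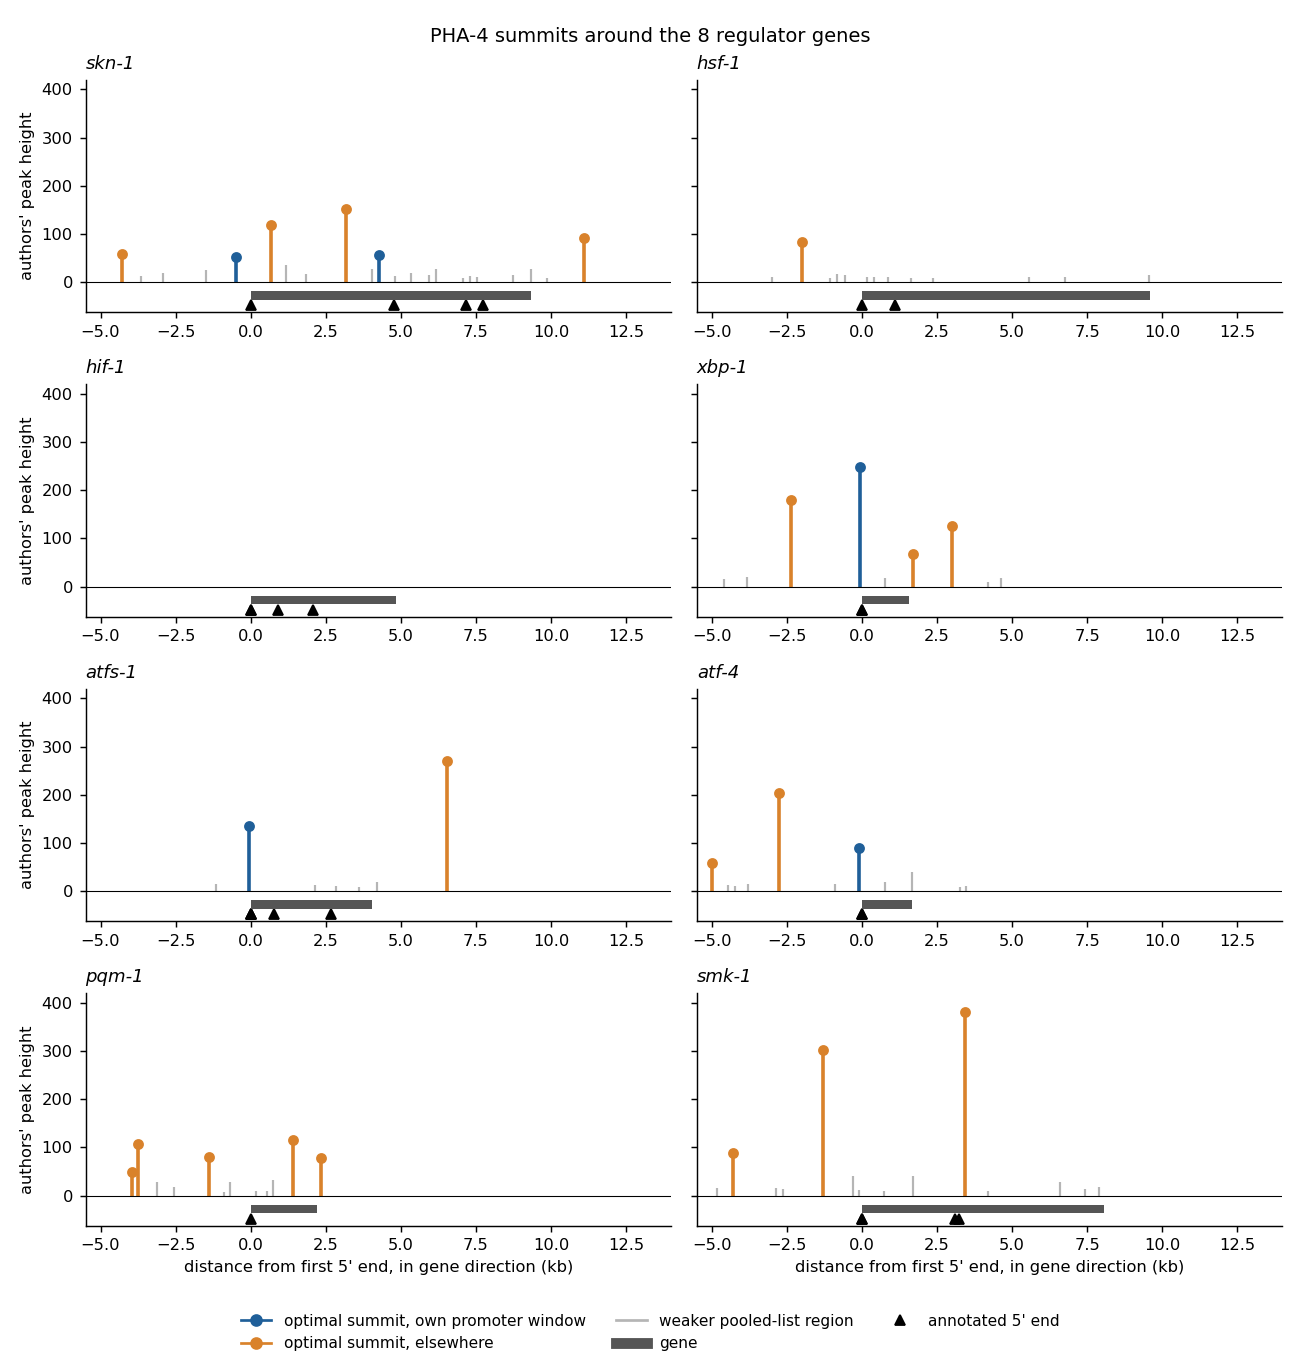
Summits of the optimal list (circles) and weaker regions of the pooled list (grey lines) around each of the 8 genes; the vertical axis is the authors' peak height and the horizontal axis the distance in kb from the first 5' end, in the direction of the gene. Blue marks the 5 optimal summits in a gene's own promoter window and orange the other 19, and the hif-1 panel is empty.

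The xbp-1 gene, which encodes the bZIP factor spliced by IRE-1 when unfolded protein builds up in the endoplasmic reticulum, had the highest promoter peak of the 8. The gene (R74.3, chromosome III, 4193809 to 4195358, plus strand) is 1550 bp long, and its promoter summit lay 55 bp upstream of the first 5' end with a signal of 249. It ranked 382 of 7847 in the optimal list, and 376 of the 4796 bound genes had a higher promoter peak. Relative signal was 3.16 in replicate 1 and 2.70 in replicate 2 (mean 2.93 ± 0.319, SD, n = 2), so both replicates placed it well above a typical peak.

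The xbp-1 locus held 3 further summits. The one at 2352 bp upstream, in an intron of dnj-16, a DnaJ-domain protein gene, and in the promoter window of dnj-16, had a signal of 181 and relative signals of 1.57 and 2.27 (mean 1.92 ± 0.497, SD, n = 2). Past the gene, 1706 bp from the first 5' end, a low summit of signal 67.8 lay in no promoter window, with relative signals of 0.765 and 0.867. The fourth summit, at 2981 bp and with a signal of 125, fell in the promoter window of asd-1, a regulator of alternative splicing. In all, 4.35% of protein-coding genes had 4 or more summits in a locus drawn the same way.

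The atfs-1 gene encodes a bZIP factor that enters mitochondria when import works and the nucleus when it fails. It lies at chromosome V, 14193663 to 14197700, plus strand (ZC376.7, 4038 bp), and has 5 annotated 5' ends. Its promoter summit, 64 bp upstream of the first of them, had a signal of 135 (rank 1864) and fell in the windows of 4 of the 5. Relative signal was 2.23 in replicate 1 and 1.28 in replicate 2 (mean 1.76 ± 0.668, SD, n = 2), which made it higher in replicate 1, where its rank was 993, than in replicate 2, where its rank was 2710.

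A second atfs-1 summit was higher than the promoter peak. It lay downstream of the gene, 6536 bp from the first 5' end and 3854 bp from the nearest, with a signal of 270 (rank 284). Relative signal was 3.66 and 2.93 (mean 3.30 ± 0.518, SD, n = 2), so in each replicate it was above the promoter value of the same replicate. No protein-coding gene had it in a promoter window, and among protein-coding genes atfs-1 itself had the nearest 5' end.

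The atf-4 gene, whose bZIP product raises amino acid and redox genes when translation initiation is held back, lies at chromosome X, 14809156 to 14810810, minus strand (T04C10.4, 1655 bp). Its promoter summit, 99 bp upstream of the first 5' end, had a signal of 88.9 and rank 3664, near the middle of the list. Relative signal was 0.945 and 1.23 (mean 1.09 ± 0.204, SD, n = 2), close to a typical optimal peak in both replicates. The same summit lay in the promoter window of T04C10.11, so the peak cannot be assigned to either gene alone.

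As at atfs-1, the highest atf-4 summit lay outside the promoter. It stood 2749 bp upstream, in an intron of T04C10.3, with a signal of 204 (rank 712) and relative signals of 1.88 and 2.60 (mean 2.24 ± 0.507, SD, n = 2). The lowest relative signal there exceeded the highest at the atf-4 promoter. The last atf-4 summit, 4986 bp upstream and nearest to epn-1, an epsin gene of endocytosis, was low, with a signal of 57.8.

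The skn-1 gene was bound, but by low peaks. It encodes the factor that drives detoxification genes and, earlier, the fate of the endomesoderm, and it lies at chromosome IV, 5651039 to 5660384, minus strand (T19E7.2, 9346 bp). Its 4 transcripts start at 4 separate 5' ends. One promoter summit lay 499 bp upstream of the first, that of isoform a, with a signal of 53.1 (rank 6413) and relative signals of 0.787 and 0.623 (mean 0.705 ± 0.116, SD, n = 2). The other lay in an intron, 492 bp upstream of the 5' end of isoform c, with a signal of 57.2 (rank 5988) and relative signals of 0.513 and 0.838 (mean 0.676 ± 0.230, SD, n = 2). Both were below a typical optimal peak in each replicate, and of the 4796 bound genes 4083 had a higher promoter peak. The windows of isoforms b and d held no optimal summit, and the highest pooled regions in them ranked 11027 and 20655 of 30000.

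Inside skn-1 the higher summits were intronic and lay in no promoter window. One stood 673 bp into the gene with a signal of 119 and relative signals of 2.03 and 1.15 (mean 1.59 ± 0.627, SD, n = 2). The other, 3182 bp into the gene and 1597 bp upstream of the 5' end of isoform c, had a signal of 151 (rank 1513) and relative signals of 2.23 and 1.60 (mean 1.91 ± 0.443, SD, n = 2). In both replicates this summit was higher than both promoter summits. With the window extended to 2000 bp upstream, it became the highest promoter peak of skn-1, and the gene's height percentile among bound genes rose from 14.9 to 69.7.

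The remaining skn-1 summits lay at neighbours. At 11084 bp from the first 5' end, past the gene's end, a summit of signal 92.3 lay in the window of csn-5, a COP9 signalosome subunit gene. At 4292 bp upstream a summit of signal 57.8 lay in the window of bec-1, the worm Beclin gene of autophagy. The replicates differed most at that one, with a relative signal of 1.15 in replicate 1 and 0.141 in replicate 2, where the nearest region ranked 26829 of 30000 and its summit lay 105 bp away. With 6 summits in all, skn-1 was among the 0.756% of protein-coding genes with at least as many (151 of 19973).

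**Figure D2:**
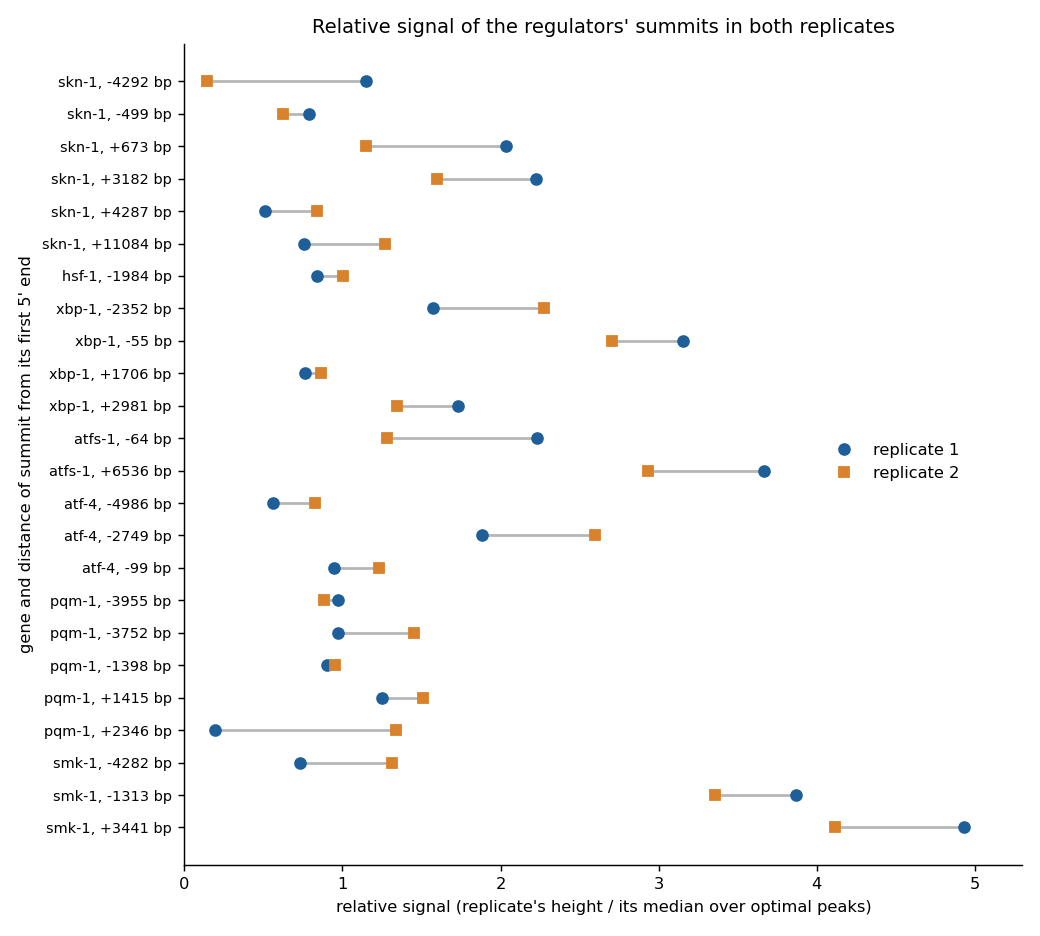
Relative signal of each of the 24 summits in replicate 1 (blue circles) and replicate 2 (orange squares), joined by a line; each row is named by its gene and its distance in bp from the first 5' end. The smk-1 summits at -1313 and +3441 bp lie furthest right in both replicates, and the widest ratios are those of skn-1 at -4292 bp and pqm-1 at +2346 bp.

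The 4 unbound genes differed among themselves. The smk-1 gene (F41E6.4, chromosome V, 8607800 to 8615843, plus strand, 8044 bp) had the highest summits of the set, but none in its own promoter windows. Its highest summit had a signal of 380, rank 71 in the optimal list, and lay in an intron of smk-1, 217 bp downstream of its last 5' end, where the window stops at 200 bp. The same bases are a coding exon of fip-4, a gene of the opposite strand, and fall in the fip-4 promoter window, 27 bp downstream of its 5' end. Relative signal was 4.93 and 4.11 (mean 4.52 ± 0.576, SD, n = 2), with rank 65 in replicate 1 and 100 in replicate 2.

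A second high smk-1 summit, 1313 bp upstream, had a signal of 302 (rank 193) and relative signals of 3.87 and 3.36 (mean 3.61 ± 0.360, SD, n = 2). It stood 359 bp upstream of a 5' end of vps-60, an ESCRT-related gene of endosomal sorting, in the window of that gene. Another, 4282 bp upstream with a signal of 87.5, lay in the windows of F41E6.15 and F41E6.5. In the smk-1 windows themselves the highest pooled region had a signal of 41.3 and rank 7881, just below the lowest optimal peak at 41.4. When a whole region rather than its summit had to overlap the window, smk-1 was counted as bound.

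The pqm-1 gene (F40F8.7, chromosome II, 11150391 to 11152595, minus strand, 2205 bp) had 5 summits at its locus and none in its promoter, and 1.78% of protein-coding genes had as many or more. Its count was 3 without replicate 2 and 5 without replicate 1. The highest of the 5 summits, with a signal of 115 (rank 2489), lay in a coding exon of pqm-1, 1415 bp from its 5' end. Relative signal there was 1.25 and 1.51 (mean 1.38 ± 0.185, SD, n = 2). The summit nearest upstream stood at 1398 bp with a signal of 80.7 and relative signals of 0.901 and 0.956 (mean 0.928 ± 0.0387, SD, n = 2), the closest pair of values among the 24. It lay outside the promoter window by less than 400 bp.

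Further from pqm-1, a pair of overlapping peaks stood 3752 and 3955 bp upstream with signals of 108 and 48.2, and both drew on the same region in replicate 1, so they are not separate measurements there. Just past the gene's end, 2346 bp from its 5' end, a summit of signal 77.3 lay in the 3' untranslated region of a neighbouring gene. That summit was uneven, with a relative signal of 0.196 in replicate 1 (rank 16780) and 1.34 in replicate 2 (rank 2536). For all 5 summits pqm-1 had the nearest protein-coding 5' end.

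The hsf-1 gene, the regulator of heat shock protein genes (Y53C10A.12, chromosome I, 11953507 to 11963085, minus strand, 9579 bp), had a single optimal summit, 1984 bp upstream of its first 5' end and in no promoter window. Its signal of 82.4 (rank 4061) was close to the median of the list. Relative signal was 0.840 and 1.00 (mean 0.922 ± 0.115, SD, n = 2). In the hsf-1 windows the highest region of the pooled list had a signal of 17.8 and rank 15295 of 30000, with ranks of 15018 in replicate 1 and 14815 in replicate 2.

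The hif-1 gene, which encodes the oxygen-sensitive factor held down by EGL-9 and VHL-1, stood apart among the 8 in having no region at all. Its locus (F38A6.3, chromosome V, 20780407 to 20785260, plus strand, 4854 bp, 4 5' ends) held no summit in the optimal, pooled or either replicate list. The relaxed pooled list of 30000 regions had a summit at the loci of 7 of the 8 genes, between 7 and 22 each, beside 62.8% of all protein-coding genes. The gap around hif-1 was 29.2 kb in the pooled list, where the median gap between summits was 1061 bp. Of the pooled gaps, 2.12% were at least as long. Long gaps cover more of the genome than their number shows, so 2.12% is not the share of genes in such gaps. That share was not computed. In the replicate lists the gap around hif-1 was 28.9 kb and 29.2 kb.

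The hif-1 gene begins 20.09 kb past the end of pha-4, the gene that the insertion in the strain targets, and the nearest pooled summits lay 20.3 kb before hif-1 and 4.03 kb after it. Read coverage of this stretch is not given in the files, so a stretch without PHA-4 and a stretch without usable reads cannot be told apart. The part of the inserted DNA in the gap was not tested.

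**Figure D3:**
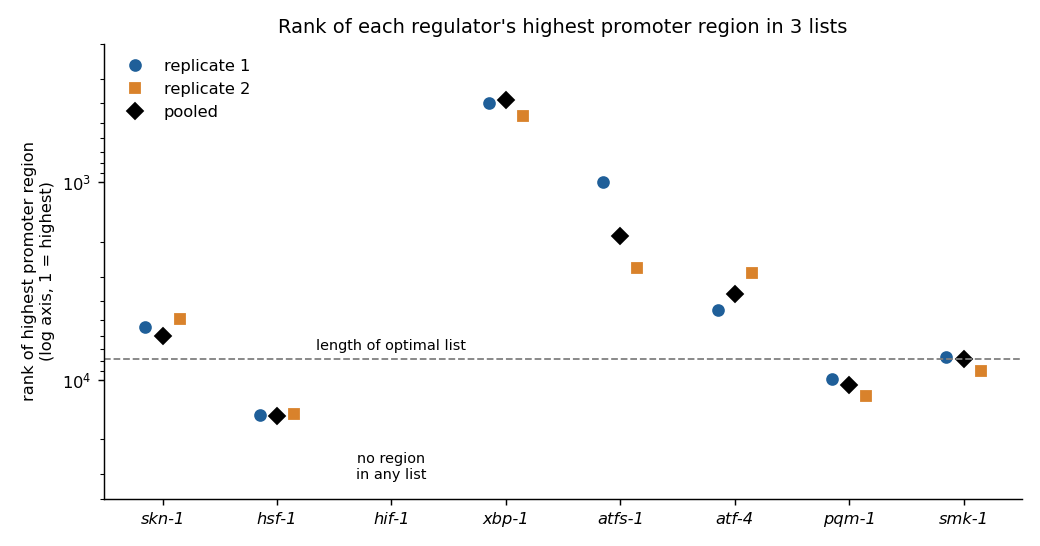
Rank of the highest region in each gene's promoter windows in the lists of replicate 1 (circles), replicate 2 (squares) and the pool (diamonds), on a log axis with rank 1 at the top; the dashed line is the length of the optimal list, 7847. The 4 bound genes lie above the line in all 3 lists, hsf-1 and pqm-1 lie below it in all 3, and smk-1 lies at the line.

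The calls were the same in the replicates taken one by one for most genes. A region among the highest 7847 of each replicate's own list lay in the promoter windows of the same 4 genes, beside 20.7% of all protein-coding genes. The smk-1 region ranked 7621 in replicate 1, inside that limit, and 9042 in replicate 2, outside it. For pqm-1 the ranks were 9875 and 12029. With the limit lowered to 3923 regions, xbp-1 and atfs-1 were the genes left. The best ranks of skn-1 were 5407 in replicate 1 and 4926 in replicate 2, and atf-4 ranked 4424 and 2888. These skn-1 ranks belong to different summits. The summit upstream of isoform a ranked 5407 in replicate 1 and 6682 in replicate 2. The intronic summit ranked 7957 in replicate 1, outside the limit of 7847, and 4926 in replicate 2.

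Over the 24 summits the replicates differed by a median coefficient of variation of 20.7%, beside 19.4% over all optimal peaks. Of the summits, 13 were higher in replicate 2 and 11 in replicate 1 in relative signal. Both summits that differed by 2-fold or more, the one near bec-1 and the one past pqm-1, were of middling or low height, and 13.3% of all matched optimal peaks differed as much. The order of the bound promoters, with xbp-1 above atfs-1, atf-4 and skn-1, was the same in both replicates. The values of the 4 genes did not overlap, but those of atfs-1 in replicate 2 and atf-4 in replicate 2 were close, at 1.28 and 1.23. With 2 replicates the spacing was not tested.

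**Figure D4:**
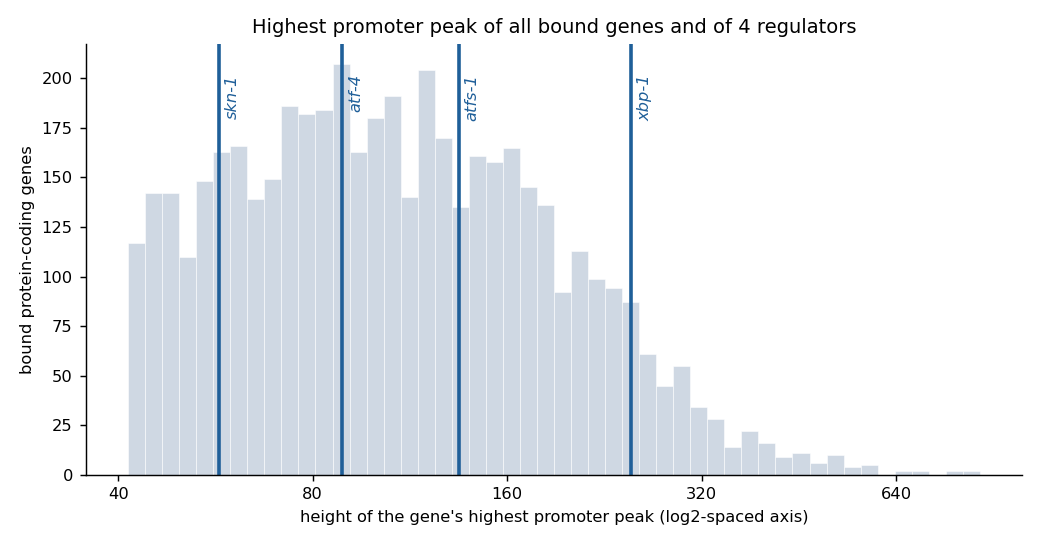
Histogram of the signal of the highest promoter peak of all 4796 bound protein-coding genes, on a log2-spaced horizontal axis, with blue lines at the 4 bound regulators. The lines stand at 57.2 for skn-1, 88.9 for atf-4, 135 for atfs-1 and 249 for xbp-1, on both sides of the bound median of 103.8.

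Most of the 24 summits lay outside the regulators' own promoters. In all, 5 lay in an own window, 7 in the window of another gene alone and 12 in no protein-coding promoter window. Thus 12 of the 24 lay in the window of some protein-coding gene, near the 54.9% of all optimal summits that did. Inside the genes there were 5 summits, of which 4 were in introns and 1 in a coding exon. For 15 of the 24 the nearest protein-coding 5' end was that of the regulator itself. For the summits inside genes and for the nearest 5' ends, the shares over the loci of all genes were not computed. Of the 24 annotated 5' ends of the 8 genes, 10 had an optimal summit in their window. Neighbouring ends of xbp-1, atfs-1 and atf-4 share a summit, so the ends are not separate cases. The share over all annotated 5' ends was not computed. Many worm transcripts are trans-spliced, so an annotated 5' end can lie downstream of where transcription starts.

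The number of summits per length varied widely among the genes. The 8 loci span 100.3 kb and held 2.39 summits per 10 kb, beside 0.835 over the loci of all protein-coding genes and 0.783 over the genome. The density was highest at pqm-1, whose 5 summits fell within 10001 bp, followed by xbp-1 at 3.99 per 10 kb and skn-1 at 3.38, and lowest at hsf-1 (0.686) and hif-1 (0). Of the 8 genes, 5 had 3 or more summits, as did 10.7% of all genes.

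The share of summits with the FoxA consensus was near that of the whole list. Within 50 bp it was found at 14 of the 24 summits (58.3%), beside 52.4% of all optimal peaks. In windows of the same length centred 500 bp to either side it was found in 14 of 48 (29.2%), beside 27.2% for all peaks. GAGAGA was found within 50 bp of 6 of the 24 summits, at skn-1, xbp-1 and atfs-1, beside 23.3% of all peaks, and in 1 of the 48 side windows (2.08%), beside 5.47% for all peaks. The 2 smk-1 summits of greatest height differed, since the one in the intron had 2 FoxA matches and the one near vps-60 had none. A match describes the letters and does not show a binding site.

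The genes that act around each regulator were looked up by the same rule. Of 126 further genes listed by pathway, 123 matched an annotated protein-coding gene, and 80 of these (65.0%) had an optimal promoter summit, beside the 24.0% of all genes. At least 1 summit at the locus was found for 108 of them (87.8%), beside 49.1% of all genes. Unbound therefore refers to the promoter window alone, and many unbound genes had summits elsewhere at their locus. Of the 80, 24 shared their highest promoter peak with another gene, beside 40.2% (1929 of 4796) of all bound genes. The lists were drawn up with earlier results of these data known, so the shares are descriptive.

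**Figure D5:**
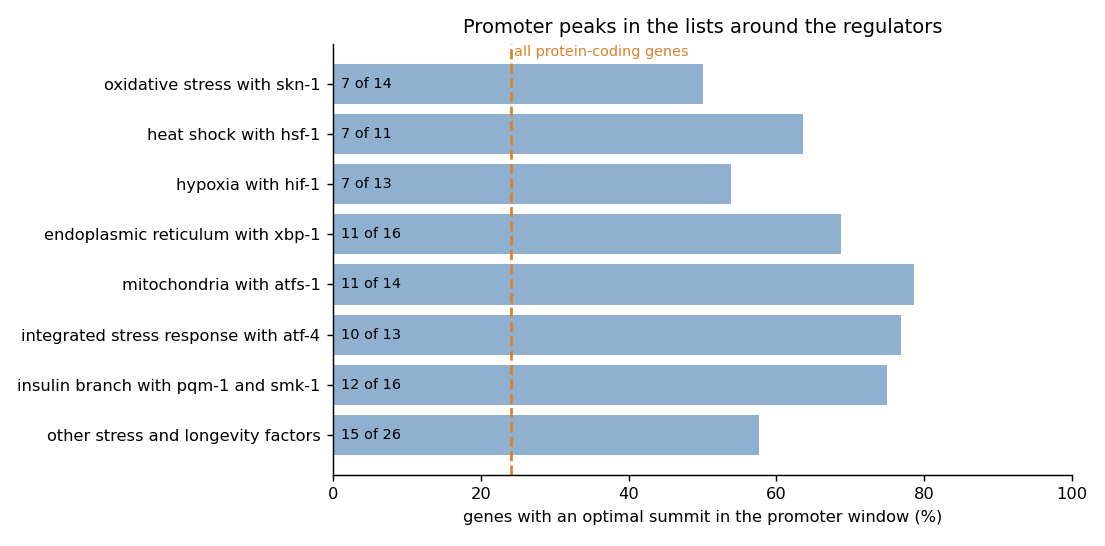
Share of the genes of each of 8 pathway lists with an optimal summit in the promoter window, with the number of genes at the left of each bar; the dashed line is the share of all protein-coding genes, 24.0%. Bars run from 7 of 14 genes for oxidative stress to 11 of 14 for mitochondria.

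Among genes of the oxidative stress response around skn-1, 7 of 14 were bound, with a median signal of 84.6. The highest was wdr-23, which encodes the adaptor that marks SKN-1 for degradation, with a signal of 264 and relative signals of 3.26 and 3.01 (mean 3.14 ± 0.174, SD, n = 2). It was followed by skr-1 (169), a Skp1-related ubiquitin ligase component, and prdx-2 (102), a peroxiredoxin. The unbound genes were brap-2, sek-1, pmk-1, gst-4, gst-10, trx-1 and bli-3. They include SEK-1 and PMK-1, kinases of the p38 pathway that activates SKN-1, and the widely used SKN-1 target gst-4.

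Around hsf-1, 7 of 11 heat shock genes were bound, with a median signal of 103. Of the 7, 4 shared their peak with another gene, and hsp-16.2 and hsp-16.41 were bound by the same peak. The peak of hsp-110, a large Hsp70-family chaperone gene, had a signal of 483 and rank 26, and relative signals of 5.78 and 5.51 (mean 5.64 ± 0.187, SD, n = 2). It lay in the window of the proteasome gene rpn-3 as well. The Hsc70 gene hsp-1 had a signal of 268, and the small heat shock gene sip-1, at 226, shared its peak with sly-1. The Hsp90 gene was listed under its older name, daf-21, and is annotated as hsp-90. It was bound too, with a signal of 301 (rank 195) and relative signals of 3.25 and 3.60 (mean 3.43 ± 0.242, SD, n = 2), in a peak shared with C47E8.4, and with it 8 of 12 were bound. The unbound genes were hsb-1, ddl-1, ddl-2 and hsp-12.6, of which HSB-1, DDL-1 and DDL-2 hold HSF-1 inactive.

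Around hif-1 itself, which had no region in any list, 7 of 13 hypoxia genes were bound, with a median signal of 141. The elongin B gene elb-1, with a signal of 325 shared with Y41C4A.11, and the HIF-1 target nhr-57, with a signal of 316, were highest. The relative signals of nhr-57 were 3.81 and 3.61 (mean 3.71 ± 0.139, SD, n = 2). The gene of the HIF-1 partner, aha-1, had a signal of 164, shared with C25A1.15. The unbound genes were vhl-1, rhy-1, cysl-1, cysl-2, swan-1 and elc-1, of which VHL-1, RHY-1 and CYSL-1 act upstream of HIF-1.

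In the endoplasmic reticulum list around xbp-1, 11 of 16 genes were bound, with a median signal of 159. They included the 3 sensors of unfolded protein, ire-1 (signal 226), atf-6 (196) and pek-1 (130). The BiP gene hsp-3 was highest with a signal of 246 and relative signals of 3.83 and 2.36 (mean 3.097 ± 1.04, SD, n = 2), while the other BiP gene, hsp-4, was unbound. Also unbound were sel-1, sel-11, ero-1 and dnj-7. The sensor ire-1 had relative signals of 2.41 and 2.73 (mean 2.57 ± 0.226, SD, n = 2), near those of the xbp-1 promoter.

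In the mitochondrial list around atfs-1, 11 of 14 genes were bound, with a median signal of 121. By nearest 5' end within 2000 bp the count was 6. The chaperonin gene hsp-60 (235), the import channel gene timm-23 (212) and the mitochondrial Hsp70 gene hsp-6 (196) led it, each with a peak shared with a neighbour, Y22D7AL.10, F15D3.6 and C37H5.5 in turn. The relative signals of hsp-60 were 3.13 and 2.45 (mean 2.79 ± 0.480, SD, n = 2) and those of hsp-6 1.95 and 2.45 (mean 2.20 ± 0.357, SD, n = 2). Unbound were lin-65, met-2 and hmg-5. In this list 7 of the 11 bound genes shared their peak.

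Around atf-4, 10 of 13 genes, most of them of translation control and TOR signalling, were bound, with a median signal of 116. The 10 include cth-2, with a signal of 46.4 (rank 7190) and no region within 200 bp in replicate 1. With the listed iftb-1, annotated as eif-2beta and bound with a signal of 133, 11 of 14 were bound. The highest were ife-2 (232) and ifg-1 (148), an eIF4E and the eIF4G gene, and the sestrin gene sesn-1 (145). The unbound genes were gcn-2, the kinase of amino acid shortage, let-363, the TOR kinase, and raga-1, its Rag GTPase. In the insulin list around pqm-1 and smk-1, 12 of 16 were bound, with a median signal of 111.

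In that insulin list the kinase gene akt-2 was highest, with a signal of 292 and relative signals of 3.41 and 3.49 (mean 3.45 ± 0.0508, SD, n = 2). The PP4 catalytic gene pph-4.1 (230), whose peak lay in the window of Y75B8A.31 too, and ppfr-1 (225), another PP4 regulatory subunit gene, followed. Among the unbound genes were daf-2, the insulin receptor, and age-1 and pdk-1, the kinases next to it. Outside their promoter windows, daf-2 had 5 optimal summits at its locus and pdk-1 had 2, while age-1 had 0. Of all protein-coding genes, 1.78% had 5 or more.

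The last list held other factors of stress and lifespan, and 15 of 26 were bound, with a median signal of 83.3. The highest were the immune bZIP gene zip-2 (319), nhr-49 (306), a nuclear receptor of fat metabolism, and cebp-1 (234). The relative signals of nhr-49 were 3.52 and 3.69 (mean 3.60 ± 0.122, SD, n = 2) and those of zip-2 4.89 and 3.13 (mean 4.01 ± 1.24, SD, n = 2). The unbound genes were nhr-8, zip-10, cebp-2, atf-2, cep-1, mml-1, mxl-1, klf-3, nfyb-1, elt-3 and mdt-15.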

How the data were processed

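Per the labels and the manifests deposited with each sample, the authors called regions on each replicate, and on both replicates pooled, against the same control, 30000 regions a list, and kept 7847 after an irreproducible discovery rate step. Neither the extract protocol nor the depth, aligner, caller or threshold is stated there. The deposited signal is the authors' peak height, and it differs in scale between lists. The deposited −log10 q-value is shared by most high regions and was not used. The optimal list is the 7847 highest pooled regions, so it is not independent of the pool. It repeats the coordinates of another entry for 5 regions, which were kept.

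Summits of the ce11 lists were placed on Ensembl release 115 genes of WBcel235, the same assembly; the ce10 lists were not used. Symbols not given by Ensembl were taken from RefSeq. Python 3.11.15, NumPy 2.4.6, pandas 2.3.3 and Matplotlib 3.10.9 were used. In simulated data, 203 of 203 peaks planted in windows were recovered, which checks the placement of coordinates and not the detection of binding.

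The genes and lists were chosen with earlier results of these data known. No list or gene was tested, because 1 group with 2 replicates gives no contrast. Named genes are the regulators, genes that share or lie nearest to their summits, the 3 highest bound genes of each list and its unbound genes, 1 of which is not reported here; the sensor pek-1 is named in addition, chosen after its value was seen. The listed names daf-21, iftb-1 and hsf-2 matched no protein-coding gene by symbol; hsp-90 and eif-2beta, the current names of daf-21 and iftb-1, were added as an alternative chosen after seeing the data. Alternatives changed the window, the unit of overlap, the list length, the replicate, the scaling and the motif distance.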

Additional observations from a re-analysis of the deposited data

How the results depend on the processing

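Of 126 alternatives, 105 were labelled as leaving their result the same and 21 as moving it. The label does not mean an equal value. The atfs-1 height percentile among bound genes was 65.5. It was 82.1 in replicate 1 and 52.4 in replicate 2, and both were labelled the same. With windows from 2000 bp upstream, 7 of the 8 genes were bound (29.4% of all protein-coding genes) instead of 4, adding hsf-1, pqm-1 and smk-1, and 7 were also among the highest regions of both replicates (25.8%). That second count was 2 with 3923 regions a list (12.1%) and 7 with whole lists (34.7%). The count of bound genes was 3 among the 3923 higher optimal peaks, without skn-1 (15.1% of all genes), and 6 when each summit went to the nearest 5' end within 2000 bp, adding hsf-1 and pqm-1 (23.2%). Without replicate 1 it was 4 (24.0%) and without replicate 2 it was 5, adding smk-1 (24.6%). The 24 summits at the loci fell to 5 within gene bodies, 13 within 2 kb of a 5' end and 15 among the higher peaks, and were 25 and 24 with 1 replicate left out. FoxA matches fell from 14 summits to 7 within 25 bp, beside 31.1% of all peaks. The 80 bound pathway genes ranged from 56, with the higher peaks, to 91, with windows from 2000 bp, where 15.1% and 29.4% of all genes were bound. With the older names matched they were 82 of 125. Of single lists, oxidative stress fell from 7 to 3 and other factors from 15 to 7 among the higher peaks, mitochondria from 11 to 6 by nearest 5' end, and the atf-4 list from 10 to 6 with windows from 500 bp upstream. With windows from 500 bp upstream, 19.5% of all genes were bound. The skn-1 height percentile was 26.1 and 26.3 in the replicates taken alone, beside 14.9. No paired analysis was possible because there is 1 group. Each relaxed list ends at 30000 regions, so weaker regions could not be seen, and depth is unknown.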
